A study of Mus musculus with 79 samples.

Results

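Pathogenic and non-pathogenic Th17 cells were compared at the same point of their expansion, after exactly 1 division, and without either of the study's compounds. The comparison took 18 of the 79 deposited libraries, 9 of each cell type, and the libraries were picked from the cell type, treatment and division given in their titles, with 1 exception that rests on measured values and is described below. Mouse T cells had been loaded with CFSE, a dye that is diluted at each division, and cultured for Th17p with the cytokines IL-1b, IL-23 and IL-6 or for Th17n with TGFb and IL-6. Cells at 1 division (Div.1) were sorted by dye intensity, and unsorted cells of the same conditions (Total) gave libraries of their own. Of the Div.1 libraries used here, 4 of each type had been cultured with DMSO, the solvent of EGCG, and 5 of each type with methanol, the solvent of DHEA. The design text describes 5 mice per condition, but the labels tie no library to a mouse, and name neither strain, age nor the T cell subset at the start. Titles place the Th17p libraries in row A and the Th17n libraries in row E of a plate, with DMSO in columns 1 to 5 and methanol in columns 6 to 10, so cell type and plate row cannot be told apart, nor solvent and plate column.

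Th17 cells are helper T cells that make IL-17A and IL-17F and guard mucosal surfaces but also drive autoimmune tissue damage. IL-6 acts through STAT3 to start the programme in both cultures. TGFb steers the cells towards a form that also makes IL-10 and shares features with regulatory T cells, whereas IL-23 and IL-1b favour a form that transfers disease in mouse models and shares features with Th1 cells.

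The exception is the library titled A4, which was left out against its label. The label says Th17n with DMSO, but the well lies in the Th17p row, and the library held Il22 at 388 TPM, Foxp3 at 0.394 TPM and Lum at 61.1 TPM, and across genes it correlated at 0.987 to 0.991 with the Th17p and at 0.955 to 0.964 with the Th17n libraries. Under its label the types would overlap with DMSO in Il22, Foxp3 and Lum, so their separation below rests on leaving this library out. Every other statement below that libraries of the types did not overlap, for single genes, lists or all genes, was likewise made without this library. Those statements were not recounted with it under its label. Values are TPM, an abundance scaled for transcript length and library size that keeps no read counts, so depth is unknown. Between 9338 and 9500 genes reached 1 TPM in each Th17p library and between 9499 and 9675 in each Th17n library. The 10 most abundant genes held 7.08% to 7.32% of the TPM in Th17p and 7.45% to 8.07% in Th17n libraries. Correlations of log2(TPM + 1) were 0.988 to 0.992 in 32 pairs within groups and 0.949 to 0.965 between the types. On the leading principal component, which held 63.9% of the variance, the Th17p libraries lay at 29.5 to 34.5 and the Th17n libraries at -34.95 to -28.3.

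All 11 T cell markers on the list, among them Cd3e, Cd4 and Lck, reached 1 TPM, with sums of 3301 to 3714 TPM in Th17p and 2823 to 3466 in Th17n libraries. The list for CD8 T and NK cells moved with the cell type: 4 of its 11 markers reached 1 TPM, and its sum ran from 9.89 to 14.2 TPM in Th17p and from 14.9 to 38.2 TPM in Th17n libraries. Klrd1, at 0 to 1.49 TPM in Th17p and 5.84 to 24.2 in Th17n, separated the types, while Ncr1 and Gzmk were listed at 0 in every library and Cd8a did not pass 0.486 TPM. Cd8b1 went the other way, at 8.2 to 12.3 TPM in Th17p and 5.66 to 8.31 in Th17n, and made up most of the Th17p sum. Dendritic cell markers summed to 6.08 to 11.3 TPM in Th17p and 3.93 to 6.28 in Th17n, where H2-Ab1 and Cd74 reached 1 TPM in at least 1 library and the 6 other markers in none. Of 10 myeloid and 8 stromal markers none reached 1 TPM. Of 9 granulocyte and mast cell markers 1 did, Ly6g, at 0.18 to 23.3 TPM in Th17p and 1.7 to 9.24 TPM in Th17n libraries. At least 1 library reached 1 TPM for 2 of 8 B cell markers and 3 of 7 erythroid markers. Only 2 of 7 gamma delta T cell markers were among the deposited genes, and neither reached 1 TPM. In bulk RNA, fewer cells of a kind and less RNA per cell cannot be told apart, and the part of these markers in the results below was not tested.

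A gene is said to be higher or lower when the adjusted p of limma's moderated test was under 0.05, and every change is Th17p minus Th17n on the scale of log2(TPM + 1), taken within each solvent and averaged. With this rule 6466 of 10672 genes tested were called, or 60.6%. Th17p cells had the higher level in 34.9% and the lower level in 25.7% of the genes tested, around a median change of 0.04. These were 3727 and 2739 genes, or 3232 and 3180 once libraries were rescaled by their median ratio. Most of these differences were small on this scale: 2.57% of genes were at least 2-fold higher and 4.15% at least 2-fold lower in TPM + 1. The added 1 shrinks the changes of genes at low TPM, so these shares can miss genes that changed 2-fold in TPM. In 15.8% of genes every Th17p library lay above every Th17n library of the same solvent, and in 11.4% every Th17p library lay below. Each count of a gene list below is to be read against these shares.

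**Figure D1:**
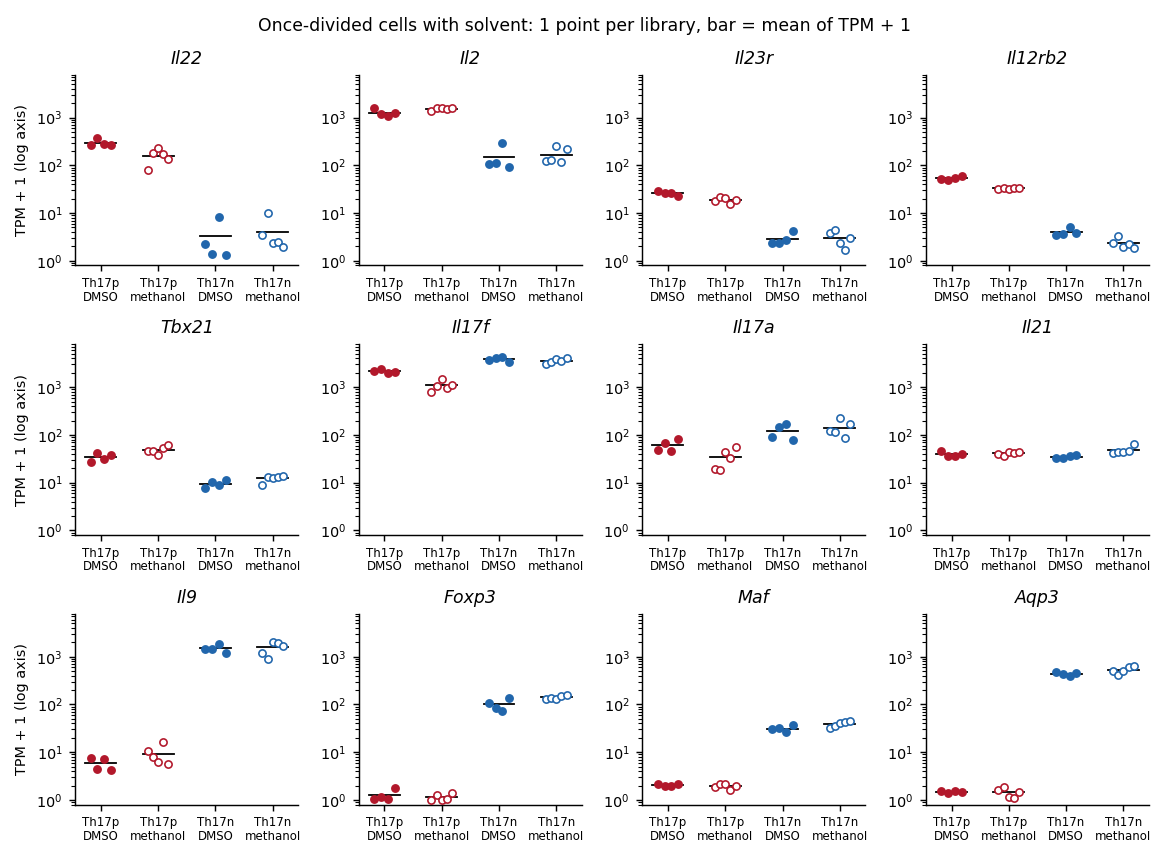
TPM + 1 on a log axis for 12 genes in each Div.1 library with solvent, filled points for DMSO, open points for methanol, and a bar at the mean of TPM + 1. Il22, Il2, Il23r, Il12rb2 and Tbx21 separate upwards in Th17p libraries, Il9, Foxp3, Maf and Aqp3 separate downwards, and the 2 types overlap in Il17a and Il21.

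The secreted products were split between the types. Il22, whose product acts on epithelial cells and not on leukocytes, stood at 265, 380.1, 280.4 and 264 TPM in the 4 Th17p libraries with DMSO and at 78.4, 179.5, 234, 168 and 134 TPM in the 5 with methanol. In the Th17n libraries Il22 was at 1.23, 0.374, 7.36 and 0.303 TPM with DMSO and 2.41, 8.83, 1.39, 1.52 and 0.931 TPM with methanol. Every Th17p library was far above every Th17n library, by 6.23 on the log2 scale (SE 0.309, adjusted p = 3.1e-28). Il2, the T cell growth factor, followed, with 1568, 1208, 1099 and 1231 TPM with DMSO and 1377, 1579, 1614, 1509 and 1590 TPM with methanol in Th17p libraries. Il2 in Th17n libraries was at 107, 112, 292 and 91.2 TPM with DMSO and 124, 126, 256, 116 and 216 TPM with methanol (log2 change 3.25, SE 0.153, adjusted p = 1.84e-29). The Th17n values of Il2 were uneven, and library 3 with DMSO and libraries 8 and 10 with methanol were the high ones. Il3, a growth factor for myeloid cells and mast cells, ran from 5.996 to 15.7 TPM (median 9.77) in Th17p libraries, and was listed at 0 in every Th17n library with DMSO (adjusted p = 9.59e-21, no size given against a group at 0). With methanol every Th17n library lay below every Th17p library for Il3.

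The cytokines that name the lineage went the other way. Il17f was at 2137, 2379, 2007 and 2074 TPM with DMSO and 798, 1037, 1509, 975 and 1121 TPM with methanol in Th17p libraries. Il17f in Th17n libraries was at 3777, 4010, 4257 and 3426 TPM with DMSO and 3121, 3354, 3947, 3487 and 4051 TPM with methanol, with no overlap within either solvent (log2 change -1.296, SE 0.147, adjusted p = 6.32e-12). Il17a was the less abundant of the pair, at 47.6, 67.2, 44.95 and 79.2 TPM with DMSO and 18.1, 17.5, 43.6, 32.5 and 54.01 TPM with methanol in Th17p libraries. Il17a in Th17n libraries was at 90.03, 147, 166 and 77.05 TPM with DMSO and 119.6, 113, 223, 86.01 and 165 TPM with methanol (log2 change -1.54, SE 0.331, adjusted p = 4.84e-05). Il17a was lower in the Th17p cells on average, but the highest Th17p library with DMSO lay above the lowest Th17n library. Il21, which acts back on Th17 cells and on B cells, ran from 34.6 to 43.97 TPM (median 39.5) in Th17p and from 31.3 to 62.4 TPM (median 39.95) in Th17n libraries, a difference of -0.01 that was not called (adjusted p = 0.927).

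Il9, a mast cell and mucosal cytokine encoded at chromosome 13, 56479277 to 56482246, minus strand (mm10), was the most unequal cytokine. It stood at 6.46, 3.39, 6.31 and 3.201 TPM with DMSO and 9.39, 6.96, 5.28, 15.3 and 4.53 TPM with methanol in Th17p libraries. Il9 in Th17n libraries was at 1457, 1482, 1874 and 1177 TPM with DMSO and 1195, 916, 2080, 1957 and 1664 TPM with methanol (log2 change -7.74, SE 0.276, adjusted p = 2.89e-36). Il10, which restrains inflammation, was at 17.99, 25.96, 16.03 and 30.98 TPM with DMSO and 11.6, 20.4, 13.1, 18.6 and 11.7 TPM with methanol in Th17n and at most 0.177 TPM in Th17p libraries (log2 change -4.18, adjusted p = 2.27e-34). The lymphotoxin genes Lta and Ltb, whose products organise lymphoid tissue, had log2 changes of -3.59 and -1.35 (adjusted p = 1.78e-46 and 1.17e-19), from Th17n levels of 888 to 1618 TPM (median 1174) and 286 to 477 TPM (median 319). Tnf (log2 change -0.66, adjusted p = 9.39e-10) and Il24 (log2 change -1.61, adjusted p = 1.93e-09) were lower too. Over the whole list of 20 cytokines, 4 of 14 kept genes were higher and 9 lower, with a median of -0.98 against 0.04 over all genes. Csf2, the GM-CSF gene often used to mark pathogenic Th17 cells, did not pass 0.673 TPM in any of the 18 libraries, and Ifng was listed at 0 in all of them. With a pseudocount of 0.1 in place of 1 the change of Il10 was -7.08.

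Both chains of the IL-23 receptor and of the IL-12 receptor were higher in Th17p cells. Il23r, the specific chain of the IL-23 receptor, was at 28.4, 25.3, 25.4 and 22.2 TPM with DMSO and 17.1, 21.2, 19.7, 14.6 and 18.3 TPM with methanol in Th17p libraries. Il23r in Th17n libraries was at 1.32, 1.35, 1.71 and 3.13 TPM with DMSO and 2.75, 3.51, 1.37, 0.705 and 2.04 TPM with methanol (log2 change 2.97, SE 0.141, adjusted p = 2.63e-29). Its partner chain Il12rb1 ran from 93.9 to 122 TPM (median 104) in Th17p and 38.9 to 66.6 TPM (median 56.01) in Th17n (log2 change 1.03, adjusted p = 1.56e-27). Il12rb2, which with the same partner forms the IL-12 receptor of Th1 cells, ran from 31.7 to 59.99 TPM (median 33.3) in Th17p and 0.819 to 4.01 TPM (median 2.304) in Th17n (log2 change 3.82, adjusted p = 5.49e-41). In all 3 genes every Th17p library lay above every Th17n library.

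The IL-6 receptor chains were lower: Il6st, the shared signalling chain gp130, was at 2.59 to 4.68 TPM (median 3.49) in Th17p and 15.6 to 26.4 TPM (median 20.8) in Th17n (log2 change -2.26, adjusted p = 3.97e-37). Il6ra was at 2.62 to 4.04 TPM (median 3.67) in Th17p and 5.98 to 9.59 TPM (median 7.25) in Th17n (log2 change -0.90, adjusted p = 2.77e-15). Il1r1, the receptor for the IL-1b in the Th17p medium, was low in both types, at 1.57 to 4.2 TPM (median 2.89) in Th17p and 2.01 to 5.71 TPM (median 4.14) in Th17n. Its small difference (log2 change -0.37, adjusted p = 0.00884) was lost without the third Th17p library with DMSO (adjusted p = 0.0509). Il2rb, a chain of the IL-2 receptor, was lower (log2 change -0.89, adjusted p = 2.88e-31). Il7r, the receptor for the survival factor IL-7, was higher (log2 change 0.74, adjusted p = 2.23e-08, and 1.202 with a pseudocount of 0.1) at levels of at most 3.86 TPM. Among 23 kept receptors 8 were higher and 12 lower, with a median of -0.32.

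Downstream of the receptors, Stat4, a STAT that can carry IL-12 and IL-23 signals, ran from 33.6 to 46.7 TPM (median 39.1) in Th17p and 5.303 to 9.52 TPM (median 7.199) in Th17n libraries (log2 change 2.33, adjusted p = 9.02e-36). Jak2, the kinase bound by both of those receptors, ran from 29.1 to 48.7 TPM (median 35.05) in Th17p and 12.2 to 19.5 TPM (median 14.2) in Th17n (log2 change 1.26, adjusted p = 4.98e-15), and the survival kinase Pim2 from 158 to 194 TPM (median 184) in Th17p and 32.8 to 61.7 TPM (median 38.6) in Th17n (log2 change 2.09, adjusted p = 8.31e-42). All 3 were higher in every Th17p library than in any Th17n library. The feedback inhibitors Socs2 (log2 change -2.20, adjusted p = 2.71e-30) and Socs3 (log2 change -0.58, adjusted p = 1.18e-15) were lower. Of 19 kept genes of the JAK-STAT list 7 were higher and 9 lower, with a median of -0.15, so the list as a whole had no single direction.

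Among transcription factors, the Treg factor Foxp3 was lower and the Th1 factor gene Tbx21 higher in Th17p cells. Rora, a nuclear receptor that promotes Th17 differentiation, was low in both types, with 0.266 to 2.26 TPM (median 0.944) in Th17p and 1.11 to 5.09 TPM (median 3.27) in Th17n, and was lower in Th17p with overlapping libraries (log2 change -1.06, adjusted p = 1.13e-05, and -1.71 with a pseudocount of 0.1). Foxp3, the factor of regulatory T cells, was at 109, 85.2, 71.5 and 136 TPM with DMSO and 132, 136, 132, 147 and 155 TPM with methanol in Th17n libraries and at most 0.766 TPM in any Th17p library (log2 change -6.64, adjusted p = 8.77e-54). Maf (log2 change -4.13, adjusted p = 2.17e-49) and Ahr (log2 change -3.11, adjusted p = 7.96e-44), factors that promote Il10, were below 2 TPM in all Th17p libraries, and ran from 25.6 to 44.3 TPM (median 33.5) and 14.5 to 24.5 TPM (median 17.5) in Th17n. Ikzf3 (log2 change -2.73, adjusted p = 5.94e-46) and Irf8 (log2 change -2.94, adjusted p = 3.12e-39) were lower as well.

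The higher factors included Tbx21, which encodes the Th1 factor T-bet. It was at 26.5, 39.98, 29.9 and 36.9 TPM with DMSO and 45.4, 44.9, 37.8, 53.4 and 59.99 TPM with methanol in Th17p libraries. Tbx21 in Th17n libraries was at 6.72, 9.18, 7.93 and 10.2 TPM with DMSO and 7.79, 12.1, 11.4, 11.9 and 13.1 TPM with methanol (log2 change 1.93, SE 0.137, adjusted p = 2.76e-20). Gata3, the Th2 factor, ran from 2.97 to 5.78 TPM (median 4.33) in Th17p and 0.8501 to 2.03 TPM (median 1.199) in Th17n (log2 change 1.28, adjusted p = 9.71e-18). Id3, an inhibitor of E proteins, ran from 292 to 525.5 TPM (median 386) in Th17p and 40.6 to 70.5 TPM (median 56.2) in Th17n (log2 change 2.74, adjusted p = 2.55e-40). Nfkbiz, a nuclear co-activator of Il17 genes, ran from 28.2 to 35.05 TPM (median 31.3) in Th17p and 4.21 to 6.35 TPM (median 4.996) in Th17n (log2 change 2.42, adjusted p = 2.36e-39). Batf (log2 change 1.01, adjusted p = 6.5e-29), needed for Th17 differentiation, and Bhlhe40 (log2 change 1.11, adjusted p = 2.41e-15) were higher. Of the 18 core Th17 regulators and receptors 5 were higher and 12 lower, with a median of -0.75. Tmem176b, an ion channel gene abundant in Th17 cells, was among the lower ones, at 0.409 to 2.14 TPM (median 0.778) in Th17p and 16.9 to 58.4 TPM (median 34.8) in Th17n (log2 change -4.01, adjusted p = 4.94e-32).

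Genes of quiescent T cells had no common direction, with 7 of 16 higher and 7 lower. Foxo1, which keeps T cells quiescent, was lower (log2 change -1.67, adjusted p = 2.92e-40), at 6.86 to 9.82 TPM (median 8.24) in Th17p and 24.9 to 34.3 TPM (median 28.8) in Th17n. Its target Klf2 reached at most 3.83 TPM and was lower (log2 change -1.33, adjusted p = 4.59e-11, and -2.98 with a pseudocount of 0.1). The chromatin organiser Satb1 was higher, at 61.9 to 86.8 TPM (median 71.7) in Th17p and 16.2 to 28.1 TPM (median 20.5) in Th17n (log2 change 1.75, adjusted p = 5.8e-32).

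The 4 promoters below are shown because Il17a, Il17f, Il23r and Ccl20, which encodes the ligand of the Th17 receptor CCR6, all belong to the Th17 programme but did not move together: Il17a, Il17f and Ccl20 were lower in Th17p cells while Il23r was higher. They were chosen after their values were seen. Each is the 250 bases before the RefSeq start site on GRCm38.p6, written 5′ to 3′ on the gene's strand. Capitals mark AGGTCA, the core site that many nuclear receptors share, or its reverse complement TGACCT.
Il17a, chr1:20730655-20730904, plus strand: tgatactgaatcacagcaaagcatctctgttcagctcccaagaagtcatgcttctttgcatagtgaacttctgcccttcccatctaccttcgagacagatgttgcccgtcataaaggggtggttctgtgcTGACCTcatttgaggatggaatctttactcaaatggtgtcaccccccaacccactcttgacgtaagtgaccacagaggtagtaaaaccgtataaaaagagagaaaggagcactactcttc
Il17f, chr1:20784271-20784520, minus strand: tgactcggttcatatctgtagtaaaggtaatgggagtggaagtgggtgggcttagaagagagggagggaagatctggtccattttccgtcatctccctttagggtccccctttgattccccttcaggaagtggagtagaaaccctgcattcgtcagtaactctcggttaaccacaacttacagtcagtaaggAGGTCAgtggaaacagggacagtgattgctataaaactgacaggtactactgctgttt
Ccl20, chr1:83116516-83116765, plus strand: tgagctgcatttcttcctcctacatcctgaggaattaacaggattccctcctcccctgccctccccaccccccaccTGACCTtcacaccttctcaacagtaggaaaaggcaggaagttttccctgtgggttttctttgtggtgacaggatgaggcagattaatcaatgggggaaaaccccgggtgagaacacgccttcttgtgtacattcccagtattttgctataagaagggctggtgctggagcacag
Il23r, chr6:67491856-67492105, minus strand: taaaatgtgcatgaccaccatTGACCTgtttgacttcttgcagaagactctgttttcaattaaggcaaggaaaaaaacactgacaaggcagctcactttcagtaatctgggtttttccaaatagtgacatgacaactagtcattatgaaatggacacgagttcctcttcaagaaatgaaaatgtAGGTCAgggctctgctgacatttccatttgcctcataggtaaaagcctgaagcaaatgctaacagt
The core site occurs once in the windows of Il17a, Il17f and Ccl20 and 2 times in that of Il23r. Of 32851 RefSeq promoters searched in the same way 14.02% held it. A match gives only the letters and says nothing of binding in these cells.

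TGFb was given to the Th17n cultures only, and most genes of its pathway were lower in Th17p cells. Of the list, 1 of 21 kept genes were higher and 16 lower, with a median of -0.63. The receptor Tgfbr1 was at 1.98, 1.93, 1.77 and 1.62 TPM with DMSO and 1.49, 1.599, 1.54, 1.76 and 1.52 TPM with methanol in Th17p libraries. Tgfbr1 in Th17n libraries was at 8.801, 11.2, 10.5 and 12.6 TPM with DMSO and 15.8, 14.4, 15.6, 15.9 and 17.9 TPM with methanol (log2 change -2.38, SE 0.0738, adjusted p = 6.94e-40). Tgfbr2 ran from 9.33 to 14.6 TPM (median 12.5) in Th17p and 26.8 to 33.3 TPM (median 28.8) in Th17n (log2 change -1.197, adjusted p = 9.47e-21). Smad3, which carries the signal to the nucleus, was lower (log2 change -1.03, adjusted p = 1.83e-22). Genes that the pathway induces to limit itself were lower too, namely Smad7 (log2 change -1.16, adjusted p = 3.81e-23), Skil (log2 change -1.94, adjusted p = 1.29e-37), Pmepa1 (log2 change -1.98, adjusted p = 1.59e-35) and Ldlrad4 (log2 change -3.32, adjusted p = 3.78e-40). Ldlrad4 had the largest change in the list, at 0.704 to 1.91 TPM (median 1.11) in Th17p and 16.3 to 25.6 TPM (median 20.8) in Th17n libraries.

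Proteins that hold or release latent TGFb were split. Lrrc32, which anchors it on regulatory T cells, ran from 2.06 to 5.41 TPM (median 3.58) in Th17n and did not pass 0.297 TPM in Th17p (log2 change -1.88, adjusted p = 2.11e-18, and -3.76 with a pseudocount of 0.1). Itgb8, an integrin chain that releases it, was the gene of this list that was higher, but at no more than 1.01 TPM (log2 change 0.704, adjusted p = 5.04e-13, and 2.32 with a pseudocount of 0.1).

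The Treg list gave 4 of 15 kept genes higher and 10 lower, with a median of -0.93. The ectoenzymes that turn extracellular ATP into adenosine were both lower: Nt5e (CD73) ran from 50.7 to 66.1 TPM (median 57.4) in Th17n and 0 to 0.9602 TPM (median 0.615) in Th17p (log2 change -5.29, adjusted p = 2.5e-56). Entpd1 (CD39) ran from 4.05 to 6.16 TPM (median 5.81) in Th17n and 0.0476 to 0.503 TPM (median 0.2102) in Th17p (log2 change -2.43, adjusted p = 8.12e-31). The actin capping gene Capg was lower, at 104 to 130.1 TPM (median 117) in Th17p and 687 to 1098 TPM (median 985) in Th17n (log2 change -2.94, adjusted p = 1.48e-58). Tigit, an inhibitory receptor of Treg and effector cells, was among the 4 higher genes, at 61.2, 82.5, 58.2 and 50.4 TPM with DMSO and 61.7, 77.96, 67.7, 61.05 and 64.8 TPM with methanol in Th17p libraries. Tigit in Th17n libraries was at 2.09, 3.88, 2.52 and 2.82 TPM with DMSO and 3.58, 5.55, 2.98, 4.21 and 6.47 TPM with methanol (log2 change 3.85, SE 0.125, adjusted p = 8.77e-39). With a pseudocount of 0.1 the change of Entpd1 was -4.33. Cyp1b1, a target of the receptor that Ahr encodes, was lower too (log2 change -1.83, adjusted p = 2.53e-16, and -3.94 with a pseudocount of 0.1), and of 8 AHR target genes 1, Il22, was higher and 5 were lower.

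Against a published signature of pathogenic Th17 cells, 12 of 15 kept genes were higher and 1 lower, with a median of 1.93, and in the non-pathogenic signature none of 7 genes was higher and 6 were lower, with a median of -3.11. Besides Il22, Il3, Tbx21 and Stat4, the higher genes held Casp1, the inflammasome protease, at 4.34 to 7.51 TPM (median 5.68) in Th17p and 0 to 0.632 TPM (median 0.199) in Th17n (log2 change 2.41, adjusted p = 1.12e-26, and 4.20 with a pseudocount of 0.1). They also held the chemokine Ccl3 (log2 change 2.67, adjusted p = 2.35e-09), the inhibitory receptor Lag3 (log2 change 1.97, adjusted p = 2.48e-27) and Gzmb, granzyme B, which ran from 5.48 to 15.2 TPM (median 11.2) in Th17p and did not pass 0.214 TPM in Th17n (log2 change 3.37, adjusted p = 4.41e-28, and 6.28 with a pseudocount of 0.1). Lgals3, galectin-3, went against the signature, at 3.26, 3.02, 3.26 and 3.56 TPM with DMSO and 6.64, 8.697, 5.72, 5.26 and 12.6 TPM with methanol in Th17p libraries. Lgals3 in Th17n libraries was at 18.7, 16.9, 17.4 and 34.98 TPM with DMSO and 48.6, 49.5, 31.4, 32.05 and 42.8 TPM with methanol (log2 change -2.33, SE 0.158, adjusted p = 3.21e-21). Ccl4 (log2 change 0.31, adjusted p = 0.257) and Cxcl3 (log2 change 0.33, adjusted p = 0.3) were not called, nor was Il1rn, the IL-1 receptor antagonist, in the non-pathogenic list (log2 change 0.45, adjusted p = 0.0607). The Il1rn difference was called on the solvent groups alone (adjusted p = 0.0457) and when any of 4 libraries was left out. Of the Th1 list 9 of 12 kept genes were higher and 2 lower, with a median of 0.93.

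**Figure D2:**
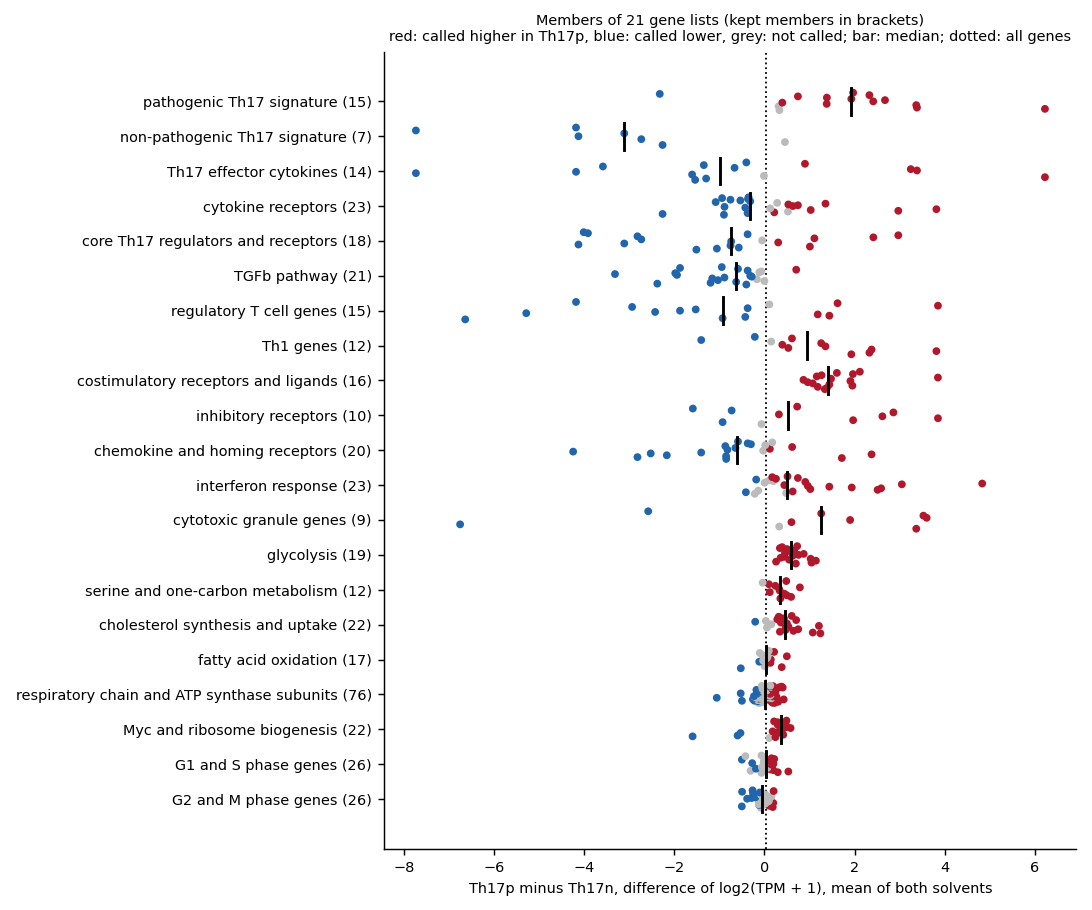
Change of each kept member of 21 gene lists, Th17p minus Th17n in log2(TPM + 1), with red for called higher, blue for called lower, grey for not called, a bar at the list's median and a dotted line at the median of all genes, 0.04. Costimulatory genes and glycolysis lie wholly to the right with medians of 1.41 and 0.599. The medians of the G1 and S phase list and the respiratory chain are close to the line, and that of the G2 and M phase list, -0.05, is slightly left of it.

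Costimulatory receptors and ligands were higher in all 16 kept members, with changes of 0.86 to 3.85 and a median of 1.41, and 13 of the 16 did not overlap between the types in either solvent. Cd28, the principal costimulatory receptor, ran from 111 to 154 TPM (median 134) in Th17p and 46.1 to 57.2 TPM (median 53.3) in Th17n (log2 change 1.34, adjusted p = 5.96e-30). Icos ran from 72.7 to 103 TPM (median 91.7) in Th17p and 27.5 to 41.3 TPM (median 33.6) in Th17n (log2 change 1.39, adjusted p = 2.02e-33). Tnfsf8, the ligand of CD30, was at 24.3, 15.7, 23.2 and 19.8 TPM with DMSO and 24.9, 18.5, 25.5, 17.6 and 20.3 TPM with methanol in Th17p libraries. Tnfsf8 in Th17n libraries was at 0.428, 0.457, 0.454 and 0.447 TPM with DMSO and 0.383, 0.673, 0.812, 0.295 and 0.819 TPM with methanol (log2 change 3.85, SE 0.121, adjusted p = 1.31e-39). The Th17n libraries were all below 1 TPM for it. Cd40lg, with which T cells help B cells, Tnfrsf9 (4-1BB) and Cd226, the activating competitor of TIGIT, were higher by 1.91, 1.95 and 1.96 (adjusted p = 1.9e-30, 2.98e-20 and 3.62e-27).

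Inhibitory receptors were less uniform, with 6 of 10 kept genes higher and 3 lower. Btla ran from 88.8 to 112 TPM (median 108) in Th17p and 11.6 to 25.3 TPM (median 15.3) in Th17n (log2 change 2.62, adjusted p = 1.74e-40). Cd200, the ligand of an inhibitory receptor on myeloid cells, ran from 294 to 459 TPM (median 387) in Th17p and 31.8 to 83.2 TPM (median 52.7) in Th17n (log2 change 2.86, adjusted p = 9.54e-37). Ctla4, which blocks costimulation through CD28, was lower in Th17p, at 45.2 to 58.9 TPM (median 49.8) in Th17p and 67.8 to 151 TPM (median 98.2) in Th17n (log2 change -0.93, adjusted p = 1.18e-15).

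Chemokine and homing receptors were mostly lower, with 4 of 20 kept genes higher and 13 lower and a median of -0.62. Ccr6, the receptor by which Th17 cells reach mucosa and inflamed tissue, was at 1.22, 0.654, 0.798 and 0.483 TPM with DMSO and 3.46, 0.764, 3.26, 3.73 and 2.11 TPM with methanol in Th17p libraries. Ccr6 in Th17n libraries was at 13.7, 9.38, 14.8 and 11.7 TPM with DMSO and 23.1, 13.9, 29.1, 25.5 and 21.8 TPM with methanol (log2 change -2.82, SE 0.1798, adjusted p = 1.4e-22). Its ligand Ccl20 was at 52.1, 54.3, 100.1 and 31.3 TPM with DMSO and 60.9, 74.6, 111, 70.6 and 131 TPM with methanol in Th17n and at most 3.37 TPM in Th17p libraries (log2 change -5.31, adjusted p = 5e-29), so receptor and ligand were lower together. Gpr15, a receptor for homing to the colon, ran from 13.6 to 33.3 TPM (median 20.99) in Th17n and did not pass 0.498 TPM in Th17p (log2 change -4.25, adjusted p = 1.06e-43, and -6.73 with a pseudocount of 0.1). A receptor typical of Th1 cells was higher: Cxcr3 ran from 39.5 to 48.05 TPM (median 43.9) in Th17p and 4.02 to 15.2 TPM (median 6.92) in Th17n (log2 change 2.38, adjusted p = 6.19e-30).

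Some of the largest differences lay in genes outside the helper programmes. Aqp3, a water and glycerol channel encoded at chromosome 4, 41092722 to 41098183, minus strand (mm10), had the largest decrease of all genes named here. It was at 474, 435, 399.9 and 456 TPM with DMSO and 492, 416, 499.8, 602 and 629.8 TPM with methanol in Th17n libraries. Aqp3 in Th17p libraries was at 0.534, 0.414, 0.544 and 0.489 TPM with DMSO and 0.628, 0.8404, 0.136, 0.092 and 0.476 TPM with methanol (log2 change -8.37, SE 0.105, adjusted p = 2.79e-63). No Th17p library reached 1 TPM. Ctsw, a cysteine protease of cytotoxic lymphocytes, ran from 177 to 322 TPM (median 267) in Th17n and 0.671 to 2.51 TPM (median 1.47) in Th17p (log2 change -6.76, adjusted p = 2.17e-56). The protease inhibitors Ctla2a and Ctla2b, near-identical neighbours whose reads may have been shared, had log2 changes of -4.62 and -6.24 (adjusted p = 3.52e-51 and 7.1e-43). Cyp11a1, which makes pregnenolone from cholesterol, ran from 58.3 to 119.6 TPM (median 73.3) in Th17n and 0.453 to 2.02 TPM (median 1.09) in Th17p (log2 change -5.23, adjusted p = 1.6e-47).

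Lum, a proteoglycan of the extracellular matrix encoded at chromosome 10, 97565128 to 97572703, plus strand (mm10), had the largest increase of the genes named here after Il22. It was at 59.8, 87.2, 61.97 and 69.3 TPM with DMSO and 37.1, 68.4, 39.7, 38.8 and 44.5 TPM with methanol in Th17p libraries. Lum in Th17n libraries was at 0.408, 0, 0.0488 and 0 TPM with DMSO and 0, 0.0425, 0.0968, 0 and 0.195 TPM with methanol (log2 change 5.701, SE 0.127, adjusted p = 2.11e-48). The summed level of the 8 stromal markers did not pass 0.546 TPM in any library. Within each solvent this sum was higher in Th17p libraries. It was 0.177 to 0.47 against 0.0548 to 0.166 TPM with DMSO and 0.197 to 0.546 against 0.0215 to 0.191 TPM with methanol. Whether this bears on Lum was not tested. S100a6, a calcium-binding protein, ran from 28.3 to 80.5 TPM (median 59.6) in Th17p and 1.64 to 7.68 TPM (median 3.66) in Th17n (log2 change 3.59, adjusted p = 7.9e-32). Vim, the intermediate filament vimentin, was lower, at 56.02 to 113 TPM (median 74.2) in Th17p and 614 to 754 TPM (median 698) in Th17n (log2 change -3.05, adjusted p = 2.31e-49), and no gene of the 13 on the cytoskeleton list was higher while 9 were lower. Emp1, a membrane protein of that list, ran from 29.7 to 46.7 TPM (median 38.6) in Th17n and was listed at 0 in every Th17p library with methanol. Pdpn, podoplanin, ran from 34.7 to 58.2 TPM (median 47.1) in Th17n and was listed at 0 in 7 of 9 Th17p libraries (log2 change -5.37, adjusted p = 1.05e-46, and -8.16 with a pseudocount of 0.1).

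Of 9 kept cytotoxic granule genes 6 were higher and 2 lower. The serpins that protect cells from granzymes, Serpinb9 and Serpinb6b, ran from 13.04 to 21.96 TPM (median 17.4) and 15.7 to 35.9 TPM (median 26.1) in Th17p and from 0.238 to 0.998 TPM (median 0.569) and 0.743 to 1.58 TPM (median 1.19) in Th17n libraries (log2 changes 3.53 and 3.6, adjusted p = 1.57e-35 and 1.19e-35). The granule membrane gene Nkg7 was higher by 1.901, and outside the list so was Cst7, an inhibitor of cathepsins, by 3.003 (adjusted p = 1.72e-10 and 2.24e-40). Ctsw and Lamp1 were the genes of this list that were lower. The killer lectin receptor Klrd1, of the CD8 and NK marker list, had its higher values in the Th17n libraries, as given above, opposite to Gzmb and Nkg7.

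Interferon response genes gave 15 of 23 kept genes higher and 2 lower, with a median of 0.51. The membrane proteins that block virus entry led: Ifitm3 was at 44.5, 35.5, 39.9 and 31.4 TPM with DMSO and 87.5, 57.1, 77.2, 92.9 and 76.6 TPM with methanol in Th17p libraries. Ifitm3 in Th17n libraries was at 0.372, 0, 0.337 and 0.861 TPM with DMSO and 0.607, 0.461, 2.73, 3.27 and 3.04 TPM with methanol (log2 change 4.83, SE 0.196, adjusted p = 4.61e-33). Ifitm2 ran from 61.3 to 150.2 TPM (median 110.5) in Th17p and 7.55 to 16.03 TPM (median 10.3) in Th17n (log2 change 3.05, adjusted p = 7.17e-37). The guanylate-binding proteins Gbp2 and Gbp4, induced by interferon gamma, were higher by 2.51 and 2.59 (adjusted p = 2.53e-29 and 3e-35). Outside the list Casp4, the caspase that senses bacterial lipopolysaccharide in the cytosol, ran from 10.8 to 19.1 TPM (median 15.6) in Th17p and 0.682 to 1.62 TPM (median 0.963) in Th17n (log2 change 3.02, adjusted p = 3.32e-30). Of the 28 listed genes 5 were below the filter, namely Ifit1, Ifit3, Irf7, Mx1 and Oasl2.

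Metabolic genes moved by less than cytokines, but some lists moved as a block. All 19 kept glycolysis genes were higher in Th17p cells, with changes of 0.26 to 1.14 and a median of 0.599, and 16 of the 19 did not overlap between the types in either solvent. Hk2, the hexokinase that phosphorylates glucose on entry, was at 55.3, 61.4, 52.4 and 59.3 TPM with DMSO and 43.4, 48.95, 62.7, 52.3 and 43.2 TPM with methanol in Th17p libraries. Hk2 in Th17n libraries was at 20.5, 23.8, 28.2 and 23.1 TPM with DMSO and 21.1, 20.9, 24.4, 24.3 and 26.9 TPM with methanol (log2 change 1.14, SE 0.0644, adjusted p = 2.97e-25). The glucose transporters Slc2a1 and Slc2a3 were higher by 0.697 and 1.04 (adjusted p = 3.73e-17 and 3.35e-06). Pfkl, a chain of phosphofructokinase, and Tpi1, triose phosphate isomerase, ran from 144 to 178 TPM (median 157) and 1376 to 1672 TPM (median 1462) in Th17p and from 59.9 to 103 TPM (median 78.3) and 672 to 1039 TPM (median 842) in Th17n (log2 changes 1.02 and 0.87, adjusted p = 9.22e-27 and 1.33e-25). Pgam1, phosphoglycerate mutase, was at 1503, 1554, 1499 and 1479 TPM with DMSO and 1503, 1522, 1572, 1538 and 1645 TPM with methanol in Th17p libraries. Pgam1 in Th17n libraries was at 1015, 1036, 1098 and 1018 TPM with DMSO and 1031, 1037, 1052, 1098 and 1217 TPM with methanol (log2 change 0.53, SE 0.0331, adjusted p = 7.28e-23). Ldha, lactate dehydrogenase and the most abundant of these with 5589 to 6128 TPM (median 5736) in Th17p and 4247 to 5264 TPM (median 4544) in Th17n, changed by 0.34 (adjusted p = 4.49e-14). Hk1 had the smallest change, 0.26 (adjusted p = 0.000636).

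**Figure D3:**
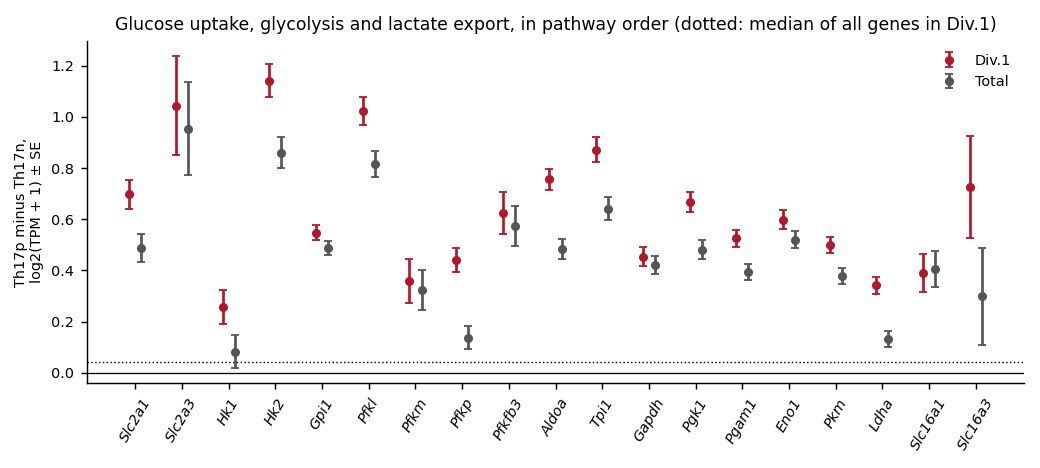
Change between the types, Th17p minus Th17n in log2(TPM + 1) with its standard error, for 19 glucose uptake, glycolysis and lactate export genes in pathway order, red for Div.1 and grey for Total. Every Div.1 point is above 0, from 0.26 for Hk1 to 1.14 for Hk2, and in 17 of the 19 the change was also called in Total.

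The pentose phosphate pathway did not share this pattern, with 4 of 10 genes higher and 3 lower and a median of 0.099. Its 2 NADPH-producing dehydrogenases were among the higher genes: Pgd ran from 231 to 277 TPM (median 251) in Th17p and 142 to 177 TPM (median 155) in Th17n (log2 change 0.67, adjusted p = 5.08e-23). G6pdx ran from 66 to 75.5 TPM (median 68.7) in Th17p and 47.3 to 61.3 TPM (median 52.4) in Th17n (log2 change 0.41, adjusted p = 6.13e-13). Serine and one-carbon genes gave 11 of 12 higher and none lower, with a median of 0.35, led by the mitochondrial folate enzyme Mthfd2 (log2 change 0.79, adjusted p = 4.79e-20). Heat shock genes gave 9 of 11 higher and none lower, with a median of 0.32. Among ATF4 targets, which answer amino acid shortage, 10 of 18 were higher and 1 lower. Cth, which makes cysteine, stood out at 13.7 to 22.7 TPM (median 18.1) in Th17p and 0.591 to 3.699 TPM (median 0.992) in Th17n (log2 change 3.09, adjusted p = 8.84e-27). Asns, asparagine synthetase, was higher by 1.13 (adjusted p = 7.31e-09).

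Cholesterol synthesis and uptake gave 18 of 22 kept genes higher and 1 lower, with a median of 0.47. Hmgcs1, which makes the precursor of mevalonate, ran from 108 to 133 TPM (median 123) in Th17p and 33.1 to 72.1 TPM (median 54.04) in Th17n (log2 change 1.24, adjusted p = 3.28e-22). Lss, which closes the sterol rings, ran from 71.8 to 92 TPM (median 80) in Th17p and 27.9 to 40.97 TPM (median 33.4) in Th17n (log2 change 1.21, adjusted p = 1.06e-27). Ebp, a late isomerase, was the gene of the list that was lower (log2 change -0.21, adjusted p = 1.06e-07). Fatty acid synthesis gave 11 of 13 higher and 1 lower, with a median of 0.43, led by the desaturase Fads2 (log2 change 1.79, adjusted p = 4.58e-17) and the elongase Elovl6 (log2 change 1.28, adjusted p = 8.73e-27). Cd5l, a secreted lipid-binding protein tied to the non-pathogenic state, was the lower gene, with libraries that overlapped between the types.

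Mitochondrial lists stayed near the median of all genes. Fatty acid oxidation gave 5 of 17 higher and 2 lower, with a median of 0.04, and Cpt1a, its entry step, was lower (log2 change -0.53, adjusted p = 9.61e-09). Respiratory chain and ATP synthase subunits gave 24 of 76 higher and 12 lower with a median of 0.02, and 20 higher and 18 lower with a median of -0.03 after the same rescaling. Myc and ribosome biogenesis genes gave 18 of 22 higher and 3 lower, with a median of 0.36. The lower ones included Fbl, the nucleolar methyltransferase (log2 change -0.53, adjusted p = 0.000145), as well as the Myc antagonist Mxd1 (log2 change -1.596, adjusted p = 1.3e-26).

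Since all cells had divided once, cell cycle genes were examined on their own. G1 and S phase genes gave 10 of 26 higher and 3 lower with a median of 0.03, and 7 higher and 7 lower with a median of -0.02 after the rescaling. G2 and M phase genes leaned lower, with 4 of 26 higher and 9 lower and a median of -0.05, and 3 higher and 11 lower with a median of -0.10 after the rescaling. In both lists no change was larger than 0.53 in size. Ccne1, cyclin E1, was higher (log2 change 0.53, adjusted p = 1.1e-16) and Mki67, the gene of the proliferation antigen Ki-67, lower (log2 change -0.39, adjusted p = 8.78e-12). Cdkn1a, the cyclin-dependent kinase inhibitor p21, had a larger change than any gene of either phase list, at 66.2, 55.4, 61.3 and 48.6 TPM with DMSO and 55.5, 34.6, 59.98, 32.8 and 54.6 TPM with methanol in Th17p libraries. Cdkn1a in Th17n libraries was at 21.9, 22.3, 18.2 and 14.6 TPM with DMSO and 21.6, 24.3, 24.3, 21.4 and 20.9 TPM with methanol (log2 change 1.28, SE 0.125, adjusted p = 3.07e-14). Cdkn1b, which encodes p27, was lower with overlapping libraries (log2 change -0.65, adjusted p = 1.19e-06).

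The comparison was made within each solvent before it was averaged, and most differences were seen in both. With DMSO 46.7% of genes were called, 29.2% higher and 17.4% lower (3118 and 1862 genes, or 2413 and 2478 after the rescaling), and with methanol 51.4% were called, 27.5% higher and 23.9% lower. In the same direction in both were 38.4% of all genes, and 0.0281% were called in opposite directions. The type difference itself depended on solvent in 92 genes, or 0.862%, with 18 more positive (0.169%) and 74 more negative (0.693%) with methanol. A fit on the compared groups alone left 7 and 18 such genes, and the plate column as a replicate block left 0 and 2. The rescaling turned the counts into 43 and 50, and the 74 became 40, 41 or 47 without the third Th17p library with DMSO, the tenth Th17n library with methanol or the third Th17n library with DMSO.

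Pltp, Havcr1 and Slamf6, named next, each lost this call in at least 1 of the alternatives tried. Pltp, a phospholipid transfer protein, was below 1 TPM in all Th17p libraries, and in Th17n libraries it was at 2.4, 1.41, 1.04 and 1.204 TPM with DMSO and 6.96, 11.1, 5.896, 4.65 and 5.13 TPM with methanol, which did not overlap (type difference -1.06 with DMSO and -2.87 with methanol, adjusted p of the difference = 5.17e-06). Havcr1, which encodes TIM-1, showed the same form, with 1.01, 2.26, 3.49 and 3.25 TPM with DMSO and 5.71, 7.07, 7.54, 15.1 and 11.9 TPM with methanol in Th17n libraries (adjusted p = 0.00181, and 0.0559 in a fit on these groups alone). Slamf6, a costimulatory receptor, differed on the Th17p side, at 66.7, 45.6, 45.8 and 45.8 TPM with DMSO and 99.2, 91.2, 91.5, 78 and 106 TPM with methanol, against 12.7 to 18.3 TPM (median 14.7) in Th17n (type difference 1.67 and 2.56, adjusted p = 0.0144). Il17f had a difference of -0.85 with DMSO and -1.75 with methanol, which was not called as unequal (adjusted p = 0.147).

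**Figure D4:**
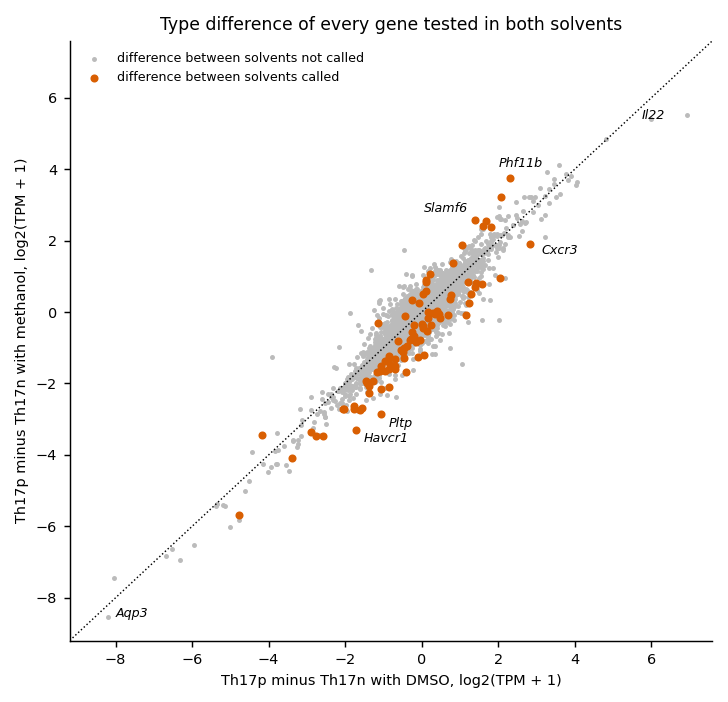
Type difference of each of the 10672 genes tested, in log2(TPM + 1), with DMSO on the horizontal and with methanol on the vertical axis, the dotted line marking equality and orange points the 92 genes whose difference was unequal between solvents. Most genes lie along the line, and Pltp and Havcr1 lie below it.

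In the unsorted cells 57.4% of genes were called, with Th17p above Th17n in 30.9% and below it in 26.5%, with a median change of 0.02. The difference between the types was not the same in Div.1 and Total in 545 genes, or 5.11%, with 337 more positive (3.16%) and 208 more negative (1.95%) in Div.1, and 237 and 291 after the rescaling. Single libraries moved these counts: the 337 became 519, 218 or 222 without the tenth Th17n methanol library of Div.1, the first Th17n DMSO library of Total or the tenth Th17n methanol library of Total, and the 208 became 116, 116 or 122 without the first Th17n DMSO library of Total, the first Th17p DMSO library of Div.1 or the fourth Th17n DMSO library of Div.1. The genes named next kept their call in every alternative tried except where stated.

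Il21 was among them: its type difference was -0.01 in Div.1 and -0.53 in Total, where Th17n libraries ran from 50.3 to 73.1 TPM and Th17p libraries from 35.5 to 50.7 TPM (difference between the sorts 0.52, adjusted p = 0.016). Ctla4 differed by -0.93 in Div.1 and -1.49 in Total (difference between the sorts 0.56, adjusted p = 0.00176). Il12rb1 differed by 1.03 and 0.49 (difference between the sorts 0.53, adjusted p = 9.85e-07). For Il21 and Ctla4 the gap was thus the smaller one in once-divided cells, and for Il12rb1 the larger one. Lum differed less in Div.1, by 5.701 against 6.88 (difference between the sorts -1.18, adjusted p = 6.97e-06), and so did S100a6, by 3.59 against 4.504 (difference between the sorts -0.91, adjusted p = 0.00518). Pdpn differed by -5.37 against -6.62, with Th17n libraries of Total at 75.3 to 126 TPM (difference between the sorts 1.25, adjusted p = 2.12e-06, and 0.0513 with a pseudocount of 0.1).

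Cd5l differed between solvents as well as types. In Div.1 it was at 7.72, 2.62, 1.98 and 5.202 TPM with DMSO and 14.2, 13.6, 19.1, 14.7 and 12.1 TPM with methanol in Th17p libraries. Cd5l in Th17n libraries was at 7.12, 8.599, 14.6 and 6.09 TPM with DMSO and 21.4, 32.5, 20.02, 23.6 and 28.3 TPM with methanol, so that within each type every methanol library lay above every DMSO library. Its type difference was -0.85 in Div.1 (adjusted p = 0.000392) and -2.16 in Total (difference between the sorts 1.31, adjusted p = 0.00385).

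**Figure D5:**
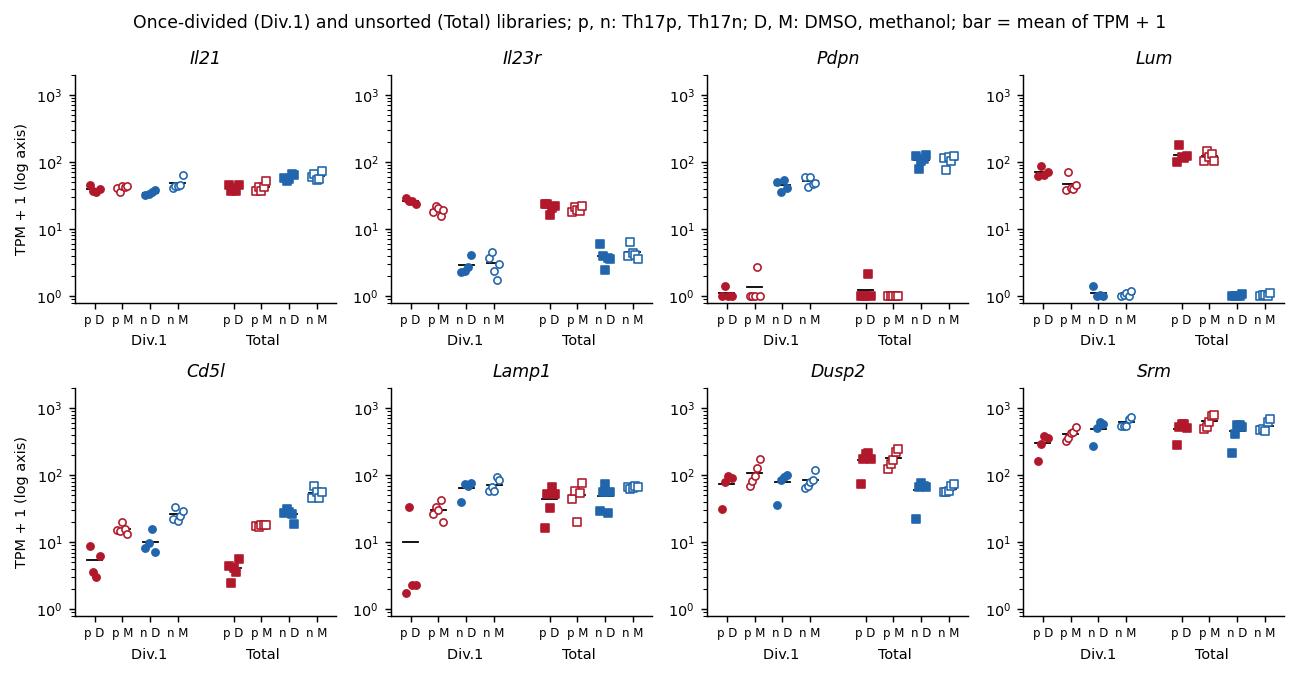
TPM + 1 on a log axis for 8 genes in each solvent library, circles for Div.1 and squares for Total, red for Th17p and blue for Th17n, filled for DMSO and open for methanol, with bars at the mean of TPM + 1. Lum in Th17p and Pdpn in Th17n are higher in Total than in Div.1, Lamp1 is near 1 TPM in 3 of the 4 Th17p Div.1 libraries with DMSO, and the first DMSO library of each type is the lowest of its group for Dusp2 and Srm.

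Lamp1, a lysosomal membrane protein exposed when granules are released, had an uneven level. It was at 0.731, 32.8, 1.27 and 1.31 TPM in the Th17p libraries with DMSO, where library 2 alone was high, and at 25.5, 32.1, 28.9, 42.1 and 18.8 TPM with methanol. Lamp1 in Th17n libraries was at 39.3, 72.1, 66.9 and 75.6 TPM with DMSO and 57.3, 64.5, 57.6, 91.3 and 84.7 TPM with methanol (log2 change -2.58, SE 0.363, adjusted p = 4.84e-09). The type difference was -3.902 with DMSO and -1.26 with methanol, which was not called as unequal. In Total, Th17p libraries ran from 15.2 to 74.6 TPM and Th17n libraries from 26.4 to 72.2 TPM, a difference of -0.35 that was not called (adjusted p = 0.397), and the difference between the sorts was -2.23 (adjusted p = 0.00411).

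In Dusp2, an early phosphatase of activated T cells, and Srm, spermidine synthase, the first DMSO library was low in both types. Dusp2 was at 29.8, 76.8, 97.2 and 88.9 TPM in Th17p and 34.8, 84.3, 92.6 and 98.7 TPM in Th17n libraries with DMSO. With methanol Dusp2 was at 68.8, 80.9, 94.8, 126 and 171 TPM in Th17p and 63.9, 68.95, 78.4, 83.9 and 120.2 TPM in Th17n libraries, where library 10 was the highest in both types. Its type difference of 0.11 was not called in Div.1 (adjusted p = 0.703) but was 1.51 in Total (difference between the sorts -1.40, adjusted p = 0.00597). Srm was at 162, 295, 381 and 356 TPM with DMSO and 320.1, 353, 428, 441 and 523 TPM with methanol in Th17p libraries. Srm in Th17n libraries was at 267, 508, 617 and 578 TPM with DMSO and 548, 547, 542, 683 and 735 TPM with methanol (log2 change -0.65, SE 0.195, adjusted p = 0.00309). Both genes were thus lowest in column 1 among the DMSO libraries and highest in column 10 among the methanol libraries of both types, and the labels do not say what a column stands for. Sms, the next enzyme of the polyamine pathway, was higher, at 23.7 to 34.01 TPM (median 30.8) in Th17p and 11.5 to 18.4 TPM (median 14.3) in Th17n (log2 change 0.98, adjusted p = 1.01e-18).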

How the data were processed

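RNA was polyA-selected from lysed T cell cultures and sequenced on an Illumina instrument, per the labels' protocols. Trimmomatic, kallisto and the mm10 build are named in the submitters' processing notes, without versions. The authors deposited 1 table of TPM values, an abundance relative to transcript length and library total, for 20465 gene symbols in 79 libraries, whose columns sum to 880077 to 895017 TPM. Replicates were kept apart.

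The values were tested as log2(TPM + 1) with limma 3.58.1 (trend, Benjamini-Hochberg adjustment, 2-sided) in R 4.3.3, on 10672 genes with at least 1 TPM in at least 4 of 78 libraries. All 16 groups entered the fit to share 1 estimate of spread. Alternatives were a pseudocount of 0.1, no filter, rescaling by the median ratio, the compared groups alone, the plate column as a replicate block, the library titled A4 in its labelled group, no plate columns 1 and 10, and each library left out. On simulated data for the Div.1 comparison over 10672 genes, 87% of 100 genes shifted by 0.5 and 96% of 100 shifted by 1 were recovered, and 6.15% of calls were false. The simulation shifted only these genes and drew independent noise for each library, without mouse or column effects. In the real comparison 60.6% of genes were called, so the simulated false share does not carry over to it.

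Genes were named from the 15 largest changes each way with at least 5 TPM and no overlap, a fixed set of genes, the leading members of 41 lists, and the 6 largest differences each way between solvents or sorts, of which the text gives a part. The members and lists were chosen with earlier results of these data known. Promoters were read from RefSeq by Python 3.11.15. Compound-treated groups served only for the spread.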

Additional observations from a re-analysis of the deposited data

Results flagged for a closer look

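In 522 groups of 4 or 5 libraries, over the 131 genes of the text, 43 held a value farther from the others than Dixon's 95% limit, where chance gives about 1 in 20 groups. Several of these values are below 1 TPM, where the limit can flag a trace amount. Far is thus meant against the spread of the group only. Among Th17p libraries with methanol, number 6 was far below the others for Ebp (67.9 TPM). Number 7 of these Th17p methanol libraries was far above the others for Lum (68.4 TPM) and Havcr1 (0.0654 TPM), and far below them for Itgb8 (0.552 TPM). Number 8 of these Th17p methanol libraries was far above the others for Skil (8.53 TPM), Ctla2b (1.24 TPM) and Cxcl3 (1.65 TPM). Number 9 of these Th17p methanol libraries was far above the others for Pdpn (1.75 TPM) and Tmem176b (2.14 TPM). Number 10 of these Th17p methanol libraries was far above the others for Il10 (0.177 TPM), Tnfrsf9 (24.4 TPM), Tpi1 (1672 TPM), Slc2a3 (11.1 TPM) and Ldha (6128 TPM). Among Th17p libraries with DMSO, number 1 was far above the others for Tnf (108 TPM), Slamf6 (66.7 TPM) and Entpd1 (0.466 TPM). Number 2 of these Th17p DMSO libraries was far above the others for Il22 (380.1 TPM), Pdpn (0.396 TPM), Emp1 (0.0885 TPM), Havcr1 (0.0718 TPM) and Lamp1 (32.8 TPM). Number 5 of these Th17p DMSO libraries was far above the others for Foxp3 (0.766 TPM). Among Th17n libraries with methanol, number 6 was far above the others for Klf2 (3.83 TPM), and far below them for Slc2a3 (3.03 TPM). Number 7 of these Th17n methanol libraries was far above the others for Il22 (8.83 TPM). Number 8 of these Th17n methanol libraries was far above the others for Gzmb (0.142 TPM). Number 10 of these Th17n methanol libraries was far above the others for Il21 (62.4 TPM), Itgb8 (0.229 TPM), Ccl3 (22.04 TPM), Tpi1 (842 TPM), Ccl4 (144 TPM) and Nkg7 (4.49 TPM). Among Th17n libraries with DMSO, number 1 was far above the others for Lum (0.408 TPM). Number 3 of these Th17n DMSO libraries was far above the others for Il22 (7.36 TPM), Il2 (292 TPM), Pim2 (61.7 TPM), Gzmb (0.214 TPM), Cth (3.699 TPM) and Mthfd2 (163 TPM). Number 4 of these Th17n DMSO libraries was far above the others for Gbp4 (3.72 TPM), Lgals3 (34.98 TPM) and Foxo1 (34.3 TPM).

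The type difference was unequal between the solvents, in limma's test of the difference itself, in 11 of these genes. The log2 value with methanol minus that with DMSO was positive for Pim2 (0.55), Slamf6 (0.89) and Phf11b (1.44). It was negative for Il12rb1 (-0.39), Ahr (-0.701), Tgfbr1 (-0.66), Cxcr3 (-0.92), Cyp11a1 (-0.896), Pltp (-1.81), Havcr1 (-1.58) and Mxd1 (-0.65). Each of the 11 lost this call in at least 1 of the alternatives tried.

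The type difference was unequal between Div.1 and Total in 28 of these genes. The log2 value in Div.1 minus that in Total was positive for Il21 (0.52), Il23r (0.65), Il12rb1 (0.53), Maf (0.45), Ikzf3 (0.35), Cd226 (0.49), Cd200 (0.43), Ctla4 (0.56), Gpr15 (0.54), Pdpn (1.25), Ctla2a (0.43), Hk2 (0.28), Tpi1 (0.23), Cd5l (1.31), Il2rb (0.23), Cst7 (0.47), Ldha (0.21), Cyp1b1 (1.08) and Cd28 (0.37). It was negative for Il1r1 (-0.59), Batf (-0.28), Lum (-1.18), Entpd1 (-0.65), S100a6 (-0.91), Vim (-0.41), Lamp1 (-2.23), Dusp2 (-1.40) and Fbl (-0.57). In 11 of the 28 the call held in every alternative tried.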

How the results depend on the processing

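Of 3275 values for 131 named genes under 25 alternatives, 3268 kept their side of the threshold, 6 gained a call (5 of Il1rn, 1 of Ccl4) and 1 lost it (Il1r1). No gene called in the main fit reversed, and direction was not checked for the others. Many of these genes were named for large or clear changes in this comparison, which favours kept calls. Of the 6466 genes called, 88.91% to 99.15% kept their call and direction in each alternative. The Div.1 comparison had 3668 higher and 2628 lower genes without plate columns 1 and 10, and 3521 and 2631 with the library titled A4 in its labelled group. The counts of higher and lower genes with 1 library left out at a time ran from 3584 to 3827 and 2634 to 2748 in Div.1, from 2872 to 3048 and 1665 to 1832 with DMSO, from 2714 to 3084 and 2298 to 2540 with methanol, and from 3189 to 3344 and 2716 to 2848 in Total. They ran from 16 to 21 and 40 to 91 for the solvent difference and from 218 to 519 and 116 to 301 for the difference between sorts.

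The differences of differences moved more. The solvent difference had 46 lower genes with a pseudocount of 0.1, 43 higher genes after rescaling, 7 higher and 18 lower genes in a fit on the compared groups alone, and 37 and 151 genes with A4 in its labelled group. The difference between sorts had 196 higher and 117 lower genes without the filter on low values, and 159 and 90 with that library. The cause of these shifts was not tested.

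With the plate column as a replicate block the solvent difference had 0 higher and 2 lower genes in limma (294 and 794 at an unadjusted p under 0.05, against 236 and 936 without the block), and all 11 named genes lost that call, among them Pltp (adjusted p = 0.0541), Slamf6 (0.0534) and Havcr1 (0.134). The difference between sorts had 651 and 523 genes, and the Div.1 comparison had 3466 and 2499. Correlations of the deviations of same-numbered libraries of the types were all positive but small, at 0.003 to 0.158. They were above 0.1 in 2 of 8 pairs, but 6 of 8 pairs were the best for their number. The main test was unpaired, as the labels do not say what a column stands for, and a part shared by libraries of 1 column was not tested. TPM keeps no read counts, so the error of low values could not be separated from depth.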
